A study of Mus musculus with 6 samples.

Results

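Matrix metalloproteinases (MMPs), ADAMTS proteases with their ADAMTS-like relatives, tissue inhibitors of metalloproteinases (TIMPs) and lysyl oxidases were described in hearts of mice lacking irisin and of wild type mice. The genes were taken by their symbols, namely symbols starting with Mmp and a digit, symbols starting with Adamts, Timp1 to Timp4, Lox, and Loxl1 to Loxl4. This gave 54 of the 23185 genes with 1 symbol on the array, made up of 22 MMPs, 18 ADAMTS proteases, 5 ADAMTS-like proteins, 4 TIMPs and 5 lysyl oxidases. Mmp15 and Adamts2 had no row under their names and were not analysed here.

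The 3 knockout samples came from FVB mice, an inbred strain, carrying an irisin knockout made by injecting Cas9 mRNA and 5 guide RNAs into zygotes. The 3 wild type samples came from littermate controls of the same strain, and animals of both genotypes had eaten standard chow (10% fat, 70% carbohydrate, 20% protein) for 24 weeks. How many founders the knockout line descends from is not given in the sources used here. Each sample was hybridised to 1 Affymetrix array, and the values are log2 summaries of probe intensity, so a difference of 1 is a change of signal by a factor of 2. Source and cell type fields say cardiomyocytes whereas the description says myocardium, and the labels do not say outright that each array is a different animal. If arrays share an animal, the p-values reflect a spread that may be technical. According to its title, the series asks how irisin deficiency bears on insulin resistance, cardiac dysfunction and ischaemia-reperfusion injury.

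MMPs are zinc endopeptidases that cut collagens, gelatins, laminins and many cell surface proteins, and most are made as inactive precursors. ADAMTS proteases are secreted relatives that trim procollagens, cut large proteoglycans such as versican and aggrecan, or act on fibrillin microfibrils, while ADAMTS-like proteins share the matrix-binding modules but have no protease domain. TIMPs block the active site of these enzymes, and lysyl oxidases are copper enzymes that cross-link collagen and elastin. In the heart, interstitial fibroblasts make much of this matrix, and vessel wall cells and cardiomyocytes contribute to it.

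Fndc5, which encodes the irisin precursor, was lower on the knockout arrays but unevenly so. It stood at 7.68, 5.49 and 5.45 log2 units on knockout arrays 1, 2 and 3, against 8.42, 8.40 and 7.83 on wild type arrays 1, 2 and 3. The groups did not overlap, and knockout array 1 stood close to the wild type arrays. The difference was -2.01 (SE 0.54, limma adjusted p = 0.0359), and the two-sided exact permutation test gave p = 0.1, the smallest that 3 arrays against 3 allow. Without knockout array 2 or 3 the adjusted p was 0.133 and 0.124, and without knockout array 1 it was 0.00217. Which part of the gene the probes cover relative to the deletion is not given in the sources used here. Because knockout array 1 stands apart for Fndc5, the count of genes that fell is also given without it. Array medians ran between 2.13 and 2.16 in knockout and between 2.23 and 2.28 in wild type, and no processing batch is labelled, so batch and genotype cannot be told apart.

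Of the 54 genes, 11 were lower in knockout hearts at an adjusted p under 0.05, 0 were higher and 43 did not pass. At an unadjusted p under 0.05, 20 of the 54 were lower and 1 was higher. The share of all genes under that unadjusted p was not counted. Unadjusted counts here and below therefore have no share beside them and are not read as an excess. The 11 make 20.4% of the genes, where 6.18% of all genes were lower and 10.4% were higher in the same limma fit. The median difference, knockout minus wild type, was -0.22 over the 54 genes and -0.05 over all genes, and 45 of the 54 differences were negative, against 57.1% of all genes. No filter on dim genes was applied, so all 54 were tested, and 25 of them lay below the median level of all genes. All 3 knockout values lay below all 3 wild type values in 21 genes (38.9%) and above them in 2, Mmp13 and Mmp1a. Over all genes the shares were 17.0% below and 17.2% above, or 34.1% in either direction. Without knockout array 1 the number lower was 6, without knockout array 2 or 3 it was also 6, and without wild type array 2 it was 17. Wild type array 2 was the lowest wild type array for 26 of the 54 genes and for 9 of the 11 that fell, beside 32.0% of all genes.

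**Figure D1:**
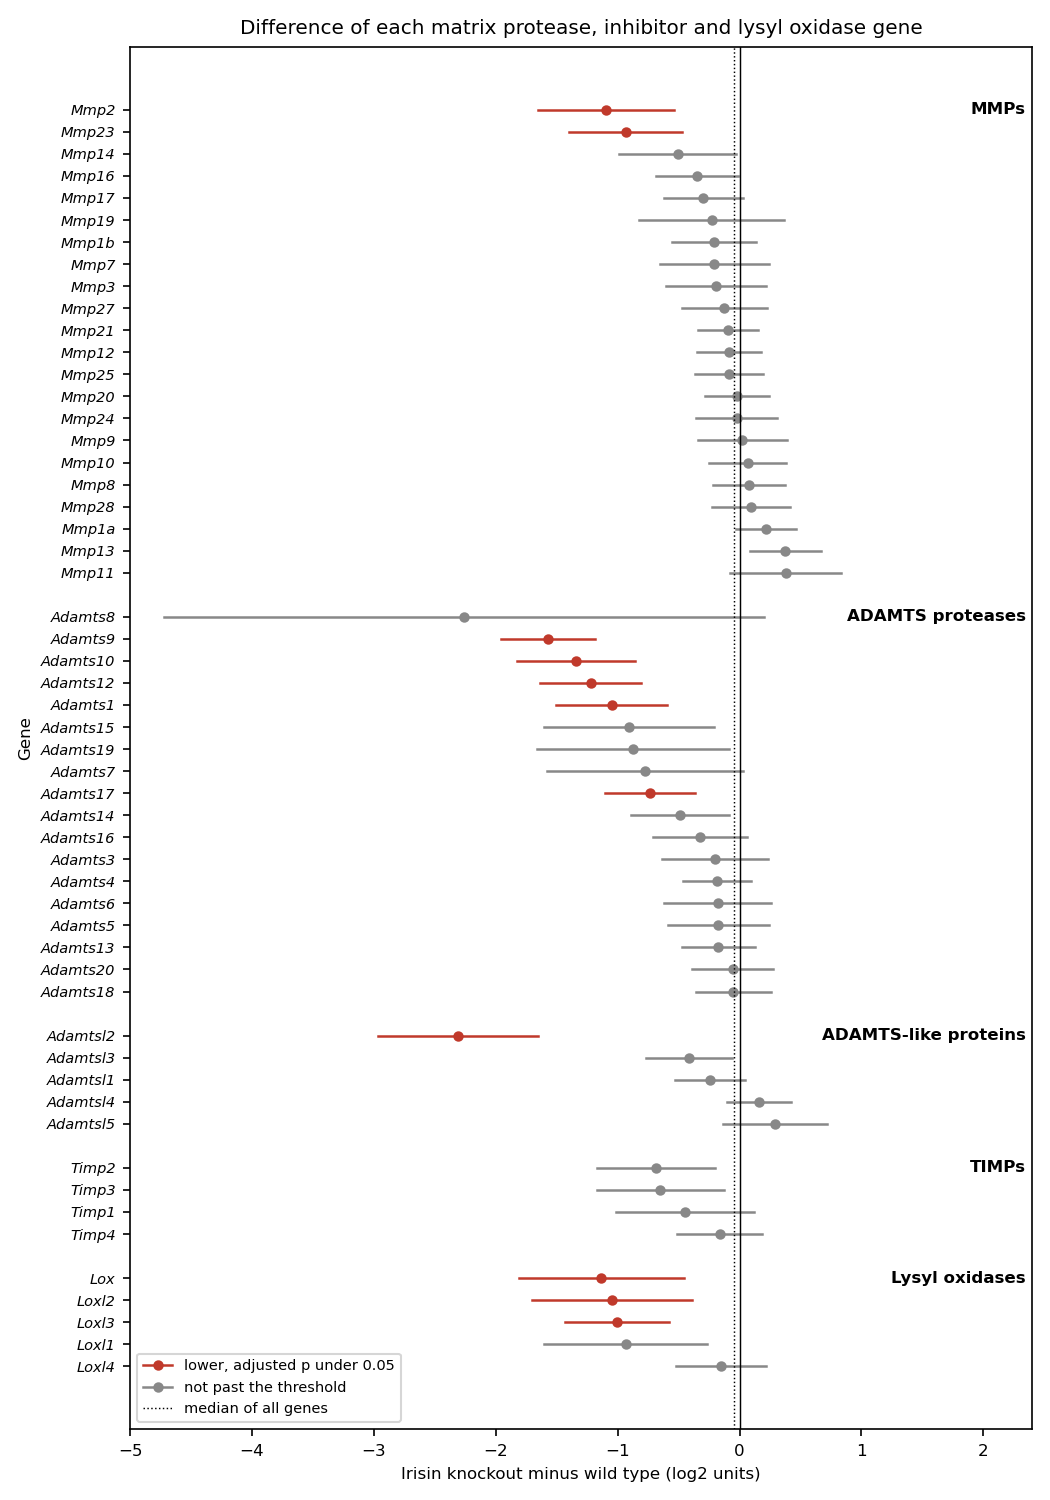
Difference of each of the 54 genes, irisin knockout minus wild type, in log2 units (points) with its 95% confidence interval from limma (lines), ordered within 5 families. The 11 genes past the threshold (red) all lie to the left of 0, the dotted line marks the median of all genes at -0.05, and the interval of Adamts8 is the widest, from -4.72 to 0.20.

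Most of the MMPs did not pass. Of 22, 2 were lower in knockout hearts, Mmp2 and Mmp23, which is 9.09% beside the 6.18% of all genes, and the family median of -0.09 was close to the -0.05 of all genes. It turned to 0.003 with quantile normalization and to 0.02 with arrays centred on their medians, so no direction is given for the family as a whole. Mmp2, or gelatinase A, which cuts gelatin and type IV collagen, stood at 6.32, 6.56 and 6.45 in knockout hearts, against 8.03, 6.96 and 7.62 in wild type hearts. Every knockout value was below every wild type value, with wild type array 2 nearest to them. Mmp2 fell by a factor of 2.13 (difference -1.09, SE 0.24, adjusted p = 0.0176). The call was lost without any 1 knockout array (adjusted p of 0.0703, 0.0550 and 0.0589 without knockout arrays 1, 2 and 3) and without wild type array 3 (0.0559).

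Mmp23 encodes an MMP anchored in the membrane by its amino-terminal end. It stood at 3.23, 3.20 and 3.23 in knockout hearts, against 4.32, 3.66 and 4.48 in wild type hearts. The knockout values were nearly identical and all below the wild type values, of which array 2 was again the lowest. The difference of -0.94 (SE 0.20, adjusted p = 0.0156) did not pass without any 1 knockout array (0.0561, 0.0640 and 0.0543).

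Mmp9, or gelatinase B, which neutrophils carry, stood at 1.85, 1.85 and 1.78 in knockout hearts, against 2.08, 1.85 and 1.49 in wild type hearts. The groups overlapped, and the difference of 0.02 (95% interval -0.34 to 0.39, adjusted p = 0.951) turned to -0.14 without wild type array 3. So the 2 gelatinases differed in outcome, Mmp2 past the threshold and Mmp9 not, although the difference between them was not tested.

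Among the 5 membrane-type MMPs with a row, all differences were negative, where 57.1% of all genes had a negative difference. Of the 5, 0 passed in limma, with 2 at an unadjusted p under 0.05. Mmp14, the membrane-type enzyme that activates the Mmp2 precursor at the cell surface together with Timp2, stood at 4.27, 4.88 and 4.75 in knockout hearts, against 5.34, 4.76 and 5.33 in wild type hearts. Only wild type array 2 fell among the knockout values. The difference was -0.51 (SE 0.21, adjusted p = 0.148), and without wild type array 2 it was -0.70 (adjusted p = 0.0463). Mmp16, a second enzyme of this class, stood at 1.63, 1.48 and 1.42 in knockout hearts, against 1.89, 1.61 and 2.07 in wild type hearts (difference -0.35, adjusted p = 0.154). Mmp17, Mmp25 and Mmp24 had differences of -0.30, -0.09 and -0.02. Those of Mmp25 and Mmp24 were smaller than their SE (0.12 and 0.15). They were also smaller than the shift that centring made to the all-gene median, from -0.05 to 0.07. So no direction is given for these genes.

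The remaining MMPs outside the gene cluster described next did not pass either. Mmp11, or stromelysin-3, had the most positive difference of the 54 genes, 0.38 (SE 0.20, adjusted p = 0.255). It was 2.65, 3.31 and 2.91 in knockout hearts, against 2.71, 2.27 and 2.76 in wild type hearts, with overlap. Mmp19 was 2.74, 3.06 and 2.60 in knockout hearts, against 3.20, 3.47 and 2.41 in wild type hearts (difference -0.23, adjusted p = 0.629). Mmp21, needed for left-right body patterning, was 1.42, 1.47 and 1.48 in knockout hearts, against 1.50, 1.61 and 1.54 in wild type hearts. Its groups did not overlap, but the difference was only -0.10 (adjusted p = 0.628) and turned to 0.004 with quantile normalization and to 0.016 with centring. Mmp28 had a difference of 0.09.

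The group also holds 10 MMP genes that follow one another on chromosome 9 without any other protein-coding gene between them in RefSeq, namely Mmp13, Mmp12, Mmp1b, Mmp3, Mmp1a, Mmp10, Mmp8, Mmp27, Mmp20 and Mmp7. All 10 lay below the median level of all genes, 0 passed in limma (1, Mmp13, had an unadjusted p under 0.05), and their median difference was -0.05. The median turned to 0.04 with quantile normalization and to 0.06 with centring. The run holds the collagenases, which cut fibrillar collagen. It also holds the stromelysins Mmp3 and Mmp10 and the matrilysin Mmp7, which cut a broad range of matrix proteins. Mmp12, Mmp20 and Mmp27 of the run were not put in these classes. Mmp13, or collagenase-3, stood at 1.66, 2.00 and 1.85 in knockout hearts, against 1.42, 1.45 and 1.52 in wild type hearts. All knockout values were the higher ones, with a difference of 0.37 (SE 0.13, adjusted p = 0.0830). The adjusted p was 0.0378 with quantile normalization and 0.0331 with centring. Mmp1a, one of a pair of mouse counterparts of human MMP1, stood at 0.84, 0.79 and 0.90 in knockout hearts, against 0.62, 0.66 and 0.60 in wild type hearts (difference 0.22, adjusted p = 0.222). It too had all knockout values on the higher side, at levels among the lowest on the array.

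The other genes of the run overlapped between the genotypes. Mmp3, or stromelysin-1, was 0.84, 1.12 and 1.00 in knockout hearts, against 1.02, 0.95 and 1.56 in wild type hearts, and its difference of -0.19 (adjusted p = 0.545) went to 0.001 without wild type array 3. Mmp7, or matrilysin, was 1.61, 1.45 and 1.98 in knockout hearts, against 1.52, 2.05 and 2.08 in wild type hearts (difference -0.21, adjusted p = 0.549). Mmp1b, Mmp12, Mmp27, Mmp20, Mmp10 and Mmp8 had differences between -0.21 and 0.08. The arrays gave no detection calls, so values at these levels may be signal or background.

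Promoter windows from RefSeq (GRCm38.p6), which run from 250 bases before each start to 50 bases after it, were read for 35 of the 54 genes. They are shown because most cluster genes share AP-1 letters there. No window of the other genes holds these letters, whether the gene was lower in knockout hearts or not. Searched on both strands were TGANTCA, the letters of the AP-1 site bound by Fos and Jun proteins, TATAAA for the TATA box, GGGCGG for the GC box, CATTCC for TEAD factors, and the CArG box of serum response factor. TGANTCA was found in 8 of the 12 windows of the cluster, which belong to 8 of its 10 genes, with the first base of the match 35 to 95 bases before the start. None of these matches overlapped another motif. By comparison, 7.81% of all 32851 windows hold it, 0 of the 26 windows of the other genes did, and 0 of the 7 windows of the 6 lower genes with a window did. TATAAA was found in 9 of the 12 cluster windows, against 13.6% of all windows. GGGCGG was found in 0 of the 12 cluster windows and in 21 of the 26 others, against 35.7% of all windows. CATTCC was in 5.26% of the windows of the group and 14.7% of all, and the CArG box in 0 and in 1.63% of all. A match describes letters only and says nothing on whether a factor binds in these hearts. The first pair below are cluster genes, Mmp13 (chr9:7272264-7272563, plus strand) and Mmp3 (chr9:7445572-7445871, plus strand), with TGANTCA and TATAAA matches in capitals. The second pair are the lower genes Adamts9 (chr6:92943485-92943784, minus strand) and Adamtsl2 (chr2:27079129-27079428, plus strand), with GC box matches of either strand and, in Adamtsl2, TATAAA in capitals.
Mmp13: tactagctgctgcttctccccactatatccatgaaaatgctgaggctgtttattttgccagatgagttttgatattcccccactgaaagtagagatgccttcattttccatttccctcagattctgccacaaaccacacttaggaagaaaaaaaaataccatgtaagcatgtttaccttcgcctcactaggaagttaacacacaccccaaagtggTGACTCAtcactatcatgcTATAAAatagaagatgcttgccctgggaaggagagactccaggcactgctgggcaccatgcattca
Mmp3: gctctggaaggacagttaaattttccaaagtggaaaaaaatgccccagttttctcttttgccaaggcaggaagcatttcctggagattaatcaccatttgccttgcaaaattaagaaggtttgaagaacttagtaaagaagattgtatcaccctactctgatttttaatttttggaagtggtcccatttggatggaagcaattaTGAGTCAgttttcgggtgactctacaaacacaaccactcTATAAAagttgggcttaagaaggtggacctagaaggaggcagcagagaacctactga
Adamts9: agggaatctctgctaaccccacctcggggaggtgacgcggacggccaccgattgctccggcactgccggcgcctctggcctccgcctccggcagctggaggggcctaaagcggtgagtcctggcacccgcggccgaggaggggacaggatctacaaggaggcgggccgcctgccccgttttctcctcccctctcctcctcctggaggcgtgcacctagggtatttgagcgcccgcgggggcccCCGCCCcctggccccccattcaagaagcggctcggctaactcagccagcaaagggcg
Adamtsl2: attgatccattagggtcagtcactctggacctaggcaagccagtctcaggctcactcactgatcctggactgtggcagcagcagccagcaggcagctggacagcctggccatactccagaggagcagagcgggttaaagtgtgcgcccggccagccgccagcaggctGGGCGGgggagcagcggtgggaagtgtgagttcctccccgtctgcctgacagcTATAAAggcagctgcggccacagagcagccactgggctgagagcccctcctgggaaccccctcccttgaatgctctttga

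None of the ADAMTS proteases had a higher mean in knockout hearts. Of 18, 5 were lower in knockout hearts (Adamts9, Adamts12, Adamts10, Adamts1 and Adamts17), 0 were higher, and all 18 differences were negative, with a median of -0.61. Without wild type array 3, 15 of the 18 were negative, and without wild type array 1, 8 passed. Under quantile normalization or centring 16 of 18 were negative and the same number, 5, passed. The 5 make 27.8% of the family, beside 6.18% of all genes, and 57.1% of all genes had a negative difference. In 10 of the 18 (55.6%) all knockout values lay below all wild type values, beside 17.0% of all genes.

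Adamts9, which cuts versican and aggrecan, had the lowest adjusted p of the 54 genes. It stood at 4.52, 4.55 and 4.88 in knockout hearts, against 6.00, 6.51 and 6.14 in wild type hearts. The gap between the highest knockout and the lowest wild type array exceeded the range of values within either genotype. Adamts9 fell by a factor of 2.97 (difference -1.57, SE 0.17, adjusted p = 0.000941), and unlike most of the genes that fell, its lowest wild type array was array 1, not array 2. The GC box match in its promoter, shown above, lies 7 bases before the start.

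Adamts1, another versican-cutting protease, stood at 3.80, 4.35 and 4.08 in knockout hearts, against 5.26, 4.76 and 5.36 in wild type hearts. The groups did not overlap, and Adamts1 fell by a factor of 2.07 (difference -1.05, SE 0.20, adjusted p = 0.00881). The call held without any 1 array and was lost without both arrays numbered 1 (adjusted p = 0.0670). Its neighbour on the chromosome is Adamts5, an aggrecan-cutting protease with no other protein-coding gene between them. Adamts5 stood at 4.83, 4.83 and 4.95 in knockout hearts, against 4.79, 4.89 and 5.46 in wild type hearts, with overlap and an adjusted p of 0.589. The within-array difference Adamts1 minus Adamts5 was -1.03, -0.48 and -0.87 in knockout hearts, against 0.47, -0.13 and -0.10 in wild type hearts. The knockout values were all the lower ones, and the exact permutation test gave p = 0.1, the smallest possible (0.133 adjusted over the 4 pairs compared).

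Adamts15 and Adamts8, further proteoglycan-cutting proteases, are neighbours on the chromosome, did not pass, and were both highest on wild type array 1. Adamts8 stood at 1.49, 1.29 and 1.37 in knockout hearts, against 6.68, 1.55 and 2.70 in wild type hearts. Wild type array 1 stood far above every other array. The difference was -2.26 (SE 1.08, 95% interval -4.72 to 0.20, adjusted p = 0.207), and without that array it was -0.74 (adjusted p = 0.136). Adamts15 stood at 2.90, 2.88 and 3.08 in knockout hearts, against 4.68, 3.38 and 3.52 in wild type hearts, again highest on wild type array 1 and without overlap. Its difference was -0.91 (SE 0.31, adjusted p = 0.0817), and without wild type array 1 it was -0.50 (adjusted p = 0.0412), with the remaining wild type arrays close together. It also passed without wild type array 2 (-1.15, adjusted p = 0.0392) and without the dimmest 50% of genes (0.0490), whereas Adamts8 passed in none of the refits. Adamts4 and Adamts20, the other members of this class, had differences of -0.18 and -0.06.

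Adamts12, known to cut cartilage oligomeric matrix protein, stood at 3.15, 3.22 and 2.77 in knockout hearts, against 4.43, 3.94 and 4.43 in wild type hearts. The groups lay well apart, and Adamts12 fell by a factor of 2.33 (difference -1.22, SE 0.18, adjusted p = 0.00327). Adamts7, which shares that substrate, stood at 3.19, 4.03 and 3.81 in knockout hearts, against 3.63, 4.76 and 4.97 in wild type hearts. Both arrays numbered 1 were the lowest of their genotype and the groups overlapped. The difference was -0.78 (SE 0.35, adjusted p = 0.184), and it was -1.19 (adjusted p = 0.0128) without wild type array 1.

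Adamts10 and Adamts17, whose human counterparts are mutated in Weill-Marchesani syndromes and which act on fibrillin microfibrils, both fell. Adamts10 stood at 3.90, 3.81 and 3.73 in knockout hearts, against 4.89, 4.91 and 5.68 in wild type hearts. The knockout arrays lay close together and below the wild type arrays, of which array 3 was the highest (difference -1.34, SE 0.21, 2.53-fold, adjusted p = 0.00400). Adamts17 stood at 2.24, 2.40 and 2.39 in knockout hearts, against 2.99, 2.82 and 3.40 in wild type hearts. It did not overlap either (difference -0.73, SE 0.16, adjusted p = 0.0169), but missed the threshold without any 1 knockout array (0.0701, 0.0559 and 0.0527).

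The procollagen N-propeptidases, which remove the amino-terminal extension of procollagens, did not pass. Adamts14 stood at 2.46, 2.77 and 2.75 in knockout hearts, against 2.79, 3.38 and 3.27 in wild type hearts, without overlap (difference -0.49, SE 0.18, adjusted p = 0.101). Without wild type array 1, its lowest wild type array, the adjusted p was 0.0184. Adamts3 stood at 2.48, 3.04 and 2.78 in knockout hearts, against 2.81, 3.29 and 2.80 in wild type hearts, with overlap (difference -0.20, adjusted p = 0.547). Adamts19 stood at 1.66, 1.77 and 1.73 in knockout hearts, against 3.55, 2.18 and 2.07 in wild type hearts. It did not overlap, with wild type array 1 far the highest (difference -0.88, adjusted p = 0.130). Adamts16, Adamts6, Adamts13 and Adamts18 had differences between -0.32 and -0.05.

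**Figure D2:**
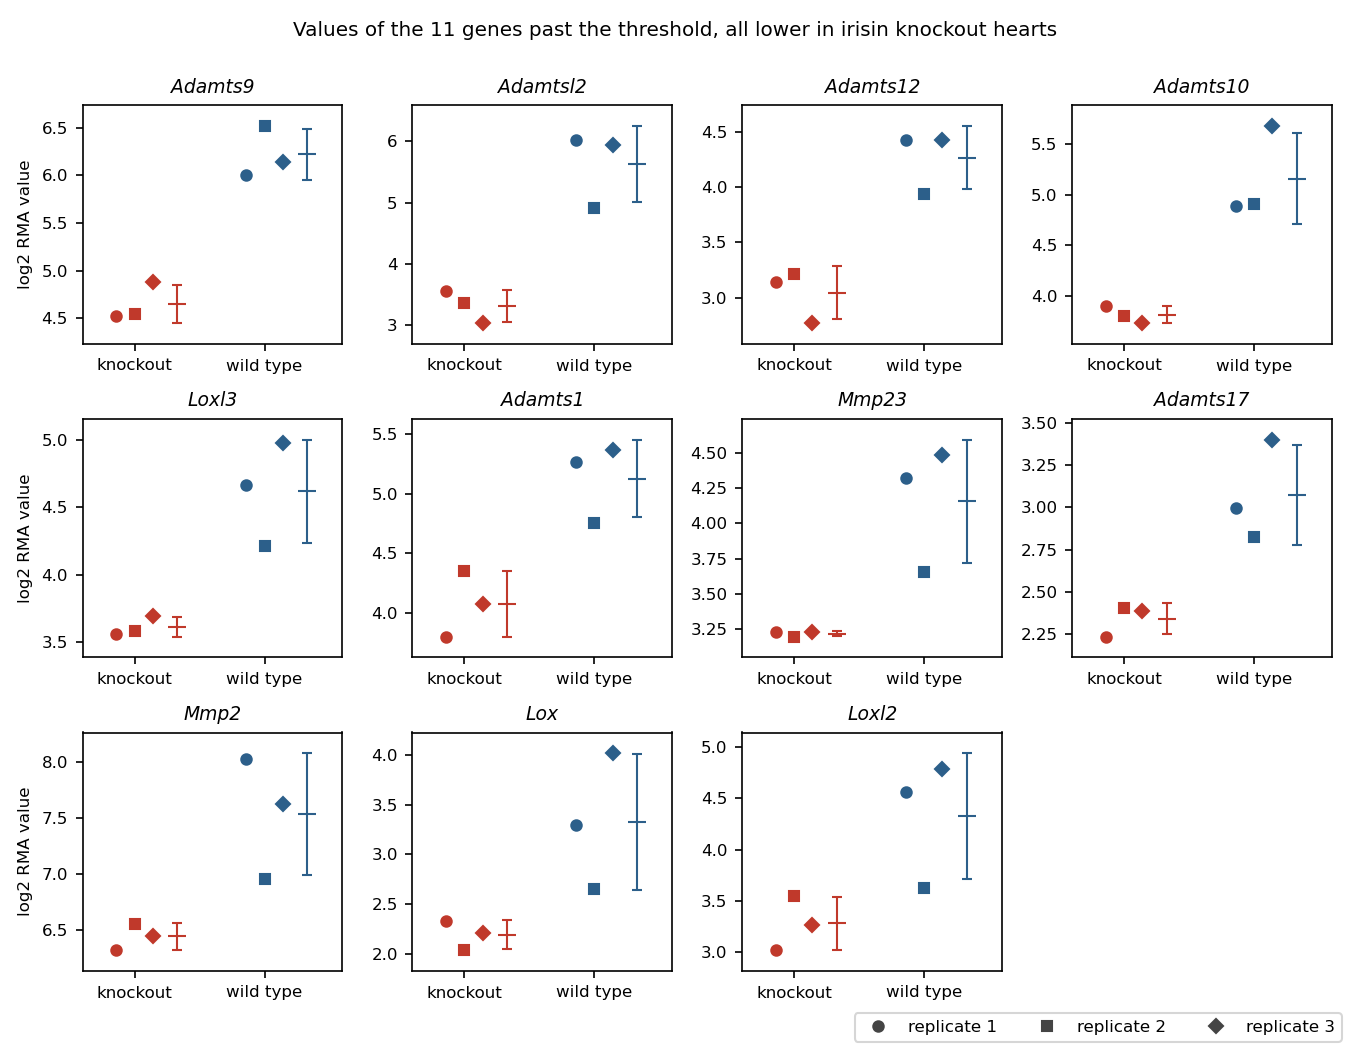
Values in log2 units of the 11 genes past the threshold on the 3 knockout arrays (red, left) and the 3 wild type arrays (blue, right) of each panel, with marker shape giving the replicate number and bars the mean ± SD. The vertical axes start above 0 and differ between panels; no knockout value reaches a wild type value, and the squares of wild type array 2 are the lowest wild type points in 9 of 11 panels.

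Of the 5 ADAMTS-like proteins, Adamtsl2 alone passed. It binds fibrillin and the latent TGF-beta binding protein LTBP1, and mutation of the human gene causes geleophysic dysplasia. Adamtsl2 stood at 3.56, 3.36 and 3.04 in knockout hearts, against 6.03, 4.92 and 5.95 in wild type hearts. Even wild type array 2, the lowest, lay well above the highest knockout array. Adamtsl2 fell by a factor of 4.96 (difference -2.31, SE 0.29, adjusted p = 0.00162), the largest fold among the 11 genes, and its promoter is shown above. Adamtsl3 stood at 2.87, 3.00 and 2.71 in knockout hearts, against 3.06, 3.23 and 3.54 in wild type hearts, close but without overlap (difference -0.41, adjusted p = 0.110). Adamtsl1 stood at 1.36, 1.50 and 1.49 in knockout hearts, against 1.74, 1.52 and 1.82 in wild type hearts, also without overlap (difference -0.24, adjusted p = 0.246). Adamtsl4 and Adamtsl5 had positive differences of 0.16 and 0.29 that did not pass.

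None of the 4 TIMPs passed in limma (Timp2 and Timp3 had an unadjusted p under 0.05), and all differences were negative with a median of -0.55. The outcome of Timp1, Timp2 and Timp3 changed without wild type array 2, and that of Timp4 did not. Timp2, which inhibits MMPs and also takes part in Mmp2 activation, stood at 7.21, 7.45 and 7.25 in knockout hearts, against 8.35, 7.49 and 8.12 in wild type hearts. Wild type array 2 lay just above the knockout arrays, so the groups did not overlap. The difference was -0.69 (SE 0.21, adjusted p = 0.0603). Timp3, a matrix-bound inhibitor that also acts on ADAMTS proteases, stood at 8.52, 8.66 and 8.45 in knockout hearts, against 9.61, 8.65 and 9.32 in wild type hearts. Here wild type array 2 lay among the knockout values (difference -0.65, SE 0.23, adjusted p = 0.0912).

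Timp1, an inducible inhibitor, stood at 1.33, 1.73 and 1.55 in knockout hearts, against 2.18, 1.38 and 2.39 in wild type hearts, with wild type array 2 again among the knockout values (difference -0.45, SE 0.25, adjusted p = 0.283). Timp4, an inhibitor abundant in the heart, stood at 3.08, 3.26 and 3.23 in knockout hearts, against 3.25, 3.65 and 3.16 in wild type hearts. Timp4 overlapped, and wild type array 2 was its highest array, not its lowest (difference -0.16, 95% interval -0.51 to 0.19, adjusted p = 0.549). Without wild type array 2, Timp1, Timp2 and Timp3 were lower in knockout hearts at adjusted p of 0.0190, 0.00557 and 0.00631. Timp1 lay below the median level of all genes (percentile 40.6), so its values may be signal or background. Timp2 and Timp3 lay at percentiles 97.5 and 99.2. With quantile normalization Timp2 (0.0208) and Timp3 (0.0361) passed. Timp2 also passed with array weights (0.0464) and without the dimmest 30% or 50% of genes (0.0475 and 0.0383), whereas Timp4 passed in none of the refits.

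Within single arrays the enzyme, its activator and its inhibitor could be set against each other. These pairs were chosen after their values were seen, and the within-array values do not rank one gene's level above another's. Mmp2 minus Timp2 was -0.89, -0.89 and -0.80 in knockout hearts, against -0.33, -0.54 and -0.50 in wild type hearts. Mmp2 minus Mmp14 was 2.04, 1.68 and 1.70 in knockout hearts, against 2.69, 2.20 and 2.29 in wild type hearts. In both pairs every knockout value was below every wild type value, also on wild type array 2, and the exact permutation p of each was 0.1 (0.133 adjusted over 4 pairs). Mmp14 minus Timp2 overlapped between the genotypes (difference 0.18, exact p = 0.3).

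All 5 lysyl oxidases had negative differences and 3 fell (1 without any 1 knockout array or wild type array 1, and 2 without wild type array 3). Without both arrays numbered 1 the number was 0, and with centring or the replicate number as a block it was 2. Loxl3 stood at 3.56, 3.58 and 3.69 in knockout hearts, against 4.66, 4.21 and 4.98 in wild type hearts. The knockout arrays lay within a narrow range below all wild type arrays, and Loxl3 fell by a factor of 2.01 (difference -1.01, SE 0.19, adjusted p = 0.00816). The call was lost only without both arrays numbered 1 (adjusted p = 0.0606). Lox, the founding enzyme of the family, stood at 2.33, 2.04 and 2.21 in knockout hearts, against 3.30, 2.66 and 4.02 in wild type hearts. The wild type arrays were widely spread but all above the knockout arrays (difference -1.13, SE 0.30, adjusted p = 0.0331). Its adjusted p without wild type array 1 was 0.0571 and without knockout arrays 1, 2 and 3 was 0.0797, 0.120 and 0.0940, and with quantile normalization it was 0.0550.

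Loxl2 stood at 3.02, 3.55 and 3.27 in knockout hearts, against 4.56, 3.63 and 4.79 in wild type hearts. Wild type array 2 was only just above the highest knockout array (difference -1.05, SE 0.29, adjusted p = 0.0389). Of the 11 it was the gene nearest to the threshold, and the call held only without wild type array 2 when single arrays were left out (0.0714 to 0.136 in the others). It was also lost with centring (0.0558), with the replicate number as a block (0.0532) and without both arrays numbered 1 (0.216). Loxl1, which is tied to elastic fibre upkeep, stood at 4.54, 5.15 and 4.73 in knockout hearts, against 6.14, 5.03 and 6.05 in wild type hearts. It overlapped through wild type array 2 (difference -0.93, SE 0.29, adjusted p = 0.0646), and without that array the adjusted p was 0.00457. Loxl4 stood at 1.99, 1.99 and 1.84 in knockout hearts, against 2.38, 1.79 and 2.12 in wild type hearts (difference -0.15, adjusted p = 0.593).

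**Figure D3:**
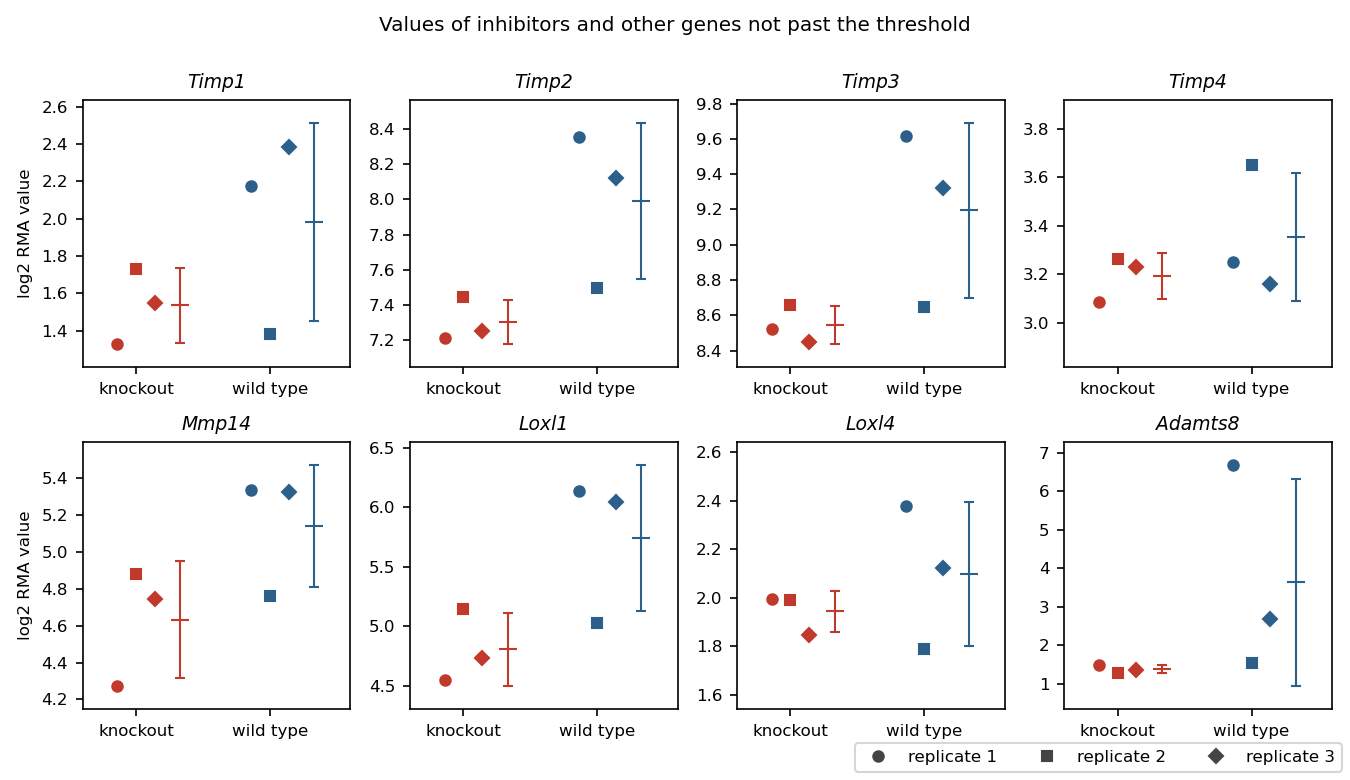
Values in log2 units of Timp1 to Timp4, Mmp14, Loxl1, Loxl4 and Adamts8, which did not pass the threshold, on the 3 knockout arrays (red, left) and the 3 wild type arrays (blue, right), with marker shape giving the replicate number and bars the mean ± SD. Axes do not start at 0 and differ in range; the square of wild type array 2 lies among or next to the knockout points except for Timp4, and Adamts8 has 1 wild type array at 6.68.

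Many genes for substrates of these enzymes and for other matrix proteins were lower too. The lists, like the group itself, were chosen with earlier results of these data known, so their counts are a description, given beside the 6.18% of all genes that were lower and the 10.4% that were higher. Of 11 fibrillar collagen genes 8 fell and 0 rose, with a median difference of -0.84, Col3a1 and Col1a1 among them at -2.85 and -2.50. Of 17 basement membrane genes 11 fell and 0 rose (median -0.84), led by Col4a1 at -1.92, a chain of the type IV collagen that Mmp2 cuts. That count was 7 without both arrays numbered 1.

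Of 15 elastic fibre genes, among them the gene for the elastin that lysyl oxidases cross-link, 9 fell and 1 rose (median -0.78). Eln, which encodes elastin, had a difference of -3.43, and Efemp1, a fibulin, was the one that rose, by 1.26. The number lower was 5 without wild type array 3, 5 without knockout array 2 and 4 without knockout array 3. It was 3 without both arrays numbered 1 and 12 with quantile normalization. The rise of Efemp1 did not pass without knockout array 2.

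Of 14 genes listed as proteoglycans and related matrix proteins, 3 fell and 0 rose (median -0.26), and 7 lay below the median level of all genes. Dcn and Bgn, at high signal on every array, had differences of -0.01 and -0.07 that did not pass. Vcan, which encodes the versican that Adamts1 and Adamts9 cut, stood at 4.18, 4.36 and 4.42 in knockout hearts, against 6.36, 5.31 and 6.46 in wild type hearts. No values overlapped, and Vcan fell by a factor of 3.31 (difference -1.73, SE 0.28, adjusted p = 0.00456). Comp, the cartilage oligomeric matrix protein cut by Adamts7 and Adamts12, stood at 2.27, 1.92 and 2.24 in knockout hearts, against 4.06, 2.75 and 4.78 in wild type hearts (difference -1.72, adjusted p = 0.0280). Fmod, a small collagen-binding proteoglycan, fell by 2.24. The count fell to 1 without wild type array 3, knockout array 2 or knockout array 3.

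Of 16 partners in procollagen processing, 3 were lower (18.75%) and 1 was higher (6.25%), beside 6.18% and 10.4% of all genes. Bmp1, the C-propeptidase that also activates Lox, stood at 4.75, 4.61 and 4.69 in knockout hearts, against 5.81, 6.00 and 6.32 in wild type hearts. The groups lay far apart relative to their spread (difference -1.36, SE 0.15, adjusted p = 0.00103). Serpinh1, the collagen chaperone HSP47, and Plod3, a lysyl hydroxylase, fell as well, with differences of -0.94 and -0.44. P3h2, a prolyl hydroxylase, stood at 5.66, 5.12 and 5.03 in knockout hearts, against 4.26, 3.87 and 4.04 in wild type hearts, and rose by 1.21 (SE 0.19, adjusted p = 0.00377). The number lower was 5 without wild type array 2, and the number higher was 2 without wild type array 1.

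Among 12 activators, clearance receptors and further inhibitors, 2 fell (16.7%) and 1 rose (8.33%), beside 6.18% and 10.4% of all genes. Lrp1, the endocytic receptor that clears several MMPs and TIMP complexes, stood at 5.87, 5.89 and 6.26 in knockout hearts, against 7.63, 6.95 and 7.67 in wild type hearts (difference -1.41, SE 0.21, adjusted p = 0.00324). Mrc2, a receptor that takes up collagen fragments, fell by 1.02. Bsg, or basigin, known as an inducer of MMPs in neighbouring cells, stood at 10.34, 10.23 and 10.18 in knockout hearts, against 9.28, 9.12 and 9.17 in wild type hearts. It was higher on every knockout array (difference 1.06, SE 0.11, adjusted p = 0.000941). The number lower was 4 without wild type array 2. Reck, a membrane-anchored MMP inhibitor, overlapped (difference -0.29, adjusted p = 0.544).

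Among 10 genes listed as ADAM sheddases, most of them membrane relatives of the ADAMTS family, Adam15 and Adam8 fell (-0.66 and -0.60). Adam17, the TNF-releasing enzyme, rose (0.51), which is 10.0% of the list beside 10.4% of all genes. Without wild type array 3 or knockout array 2 or 3 the rise of Adam17 did not pass, and the number lower was 1 without any of these arrays or knockout array 1. Of 7 plasminogen system genes, Plat, the tissue plasminogen activator, fell (-0.59) and Plgrkt, a plasminogen receptor, rose (0.93). Neither passed without any 1 knockout array or without both arrays numbered 1. Plat also did not pass without wild type array 1 or 3 or with centring. Of 13 AP-1 and ETS transcription factor genes, Atf3, Junb and Ets1 were lower, with differences of -1.72, -0.90 and -0.54, and 0 were higher. The number lower was 1 without knockout array 1 or 2. Fos had the largest difference of the list, -2.08, and did not pass (limma adjusted p = 0.0608). Jun, Jund and Ets2 had differences of -0.01, 0.16 and 0.44 that did not pass.

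Many markers of fibroblasts and smooth muscle were lower too, where 6.18% of all genes were, with 9 of 10 differences negative in each list. Differences were also negative for 9 of 10 endothelial, 8 of 10 macrophage, 8 of 10 neutrophil and 6 of 6 adipocyte markers. So were those of 7 of 10 cardiomyocyte and 5 of 7 epicardial markers, beside 57.1% of all genes. Median differences of the pericyte, mast cell and lymphocyte lists were positive (0.11, 0.01 and 0.18). Mean levels of the 10 fibroblast markers were 6.58, 6.71 and 6.65 on the knockout arrays, against 7.84, 6.98 and 7.74 on the wild type arrays, with 6 lower and 0 higher. Wild type array 2 was again the lowest wild type array, as for most of the genes above. The 10 smooth muscle markers averaged 4.66, 4.46 and 4.70 on the knockout arrays, against 6.20, 5.45 and 7.31 on the wild type arrays, with 6 lower and 0 higher. The count for fibroblast markers was 3 without wild type array 3 and 2 without knockout array 2, knockout array 3 or both arrays numbered 1. That for smooth muscle markers was 3 without knockout array 1 or 3 and 2 without knockout array 2. Col1a1, Mfap5, Dcn and Lum stand in both the fibroblast markers and the lists of substrates and other matrix proteins.

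Not every fibroblast marker was lower. Pdgfra, Dpt, Pi16, Gsn, Mfap5 and Col1a1 fell, while Dcn and Tcf21 had differences of -0.01 and 0.10, and Lum and Ddr2 of -0.33 and -0.36 that did not pass. The 10 cardiomyocyte markers averaged 10.88, 10.83 and 10.89 on the knockout arrays, against 10.93, 10.86 and 10.96 on the wild type arrays, with Pln alone past the threshold, higher in knockout hearts. Pln did not pass without any 1 knockout array, and 1 marker was lower without wild type array 1 or knockout array 3. So markers of the labelled cell type were at high signal on every array, and markers of fibroblasts, smooth muscle and endothelium were measured beside them. In bulk samples, fewer cells of a type and less RNA per cell cannot be told apart. The part of these markers in the results above was not tested.

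Endothelial markers averaged 6.64 to 6.92 on the knockout arrays, against 7.08 to 7.22 on the wild type arrays. Of these, 2 of 10 were lower (1 without knockout array 1 or 2, and 4 with quantile normalization). Pericyte markers averaged 5.91 to 6.07 on the knockout arrays, against 5.47 to 5.83 on the wild type arrays, with a median difference of 0.11. Of these 9, 3 were higher (Rgs5, Kcnj8 and Abcc9), where 10.4% of all genes were, and 0 were lower (2 without wild type array 1), while Cspg4, Notch3 and Higd1b had differences of -0.67, -0.65 and -0.30 that did not pass. Macrophage markers averaged 4.30 to 4.35 on the knockout arrays, against 4.50 to 4.65 on the wild type arrays. Of these, 1 of 10 was lower (2 without wild type array 3, and 3 with quantile normalization), and 1 was higher with centring only among the normalizations. Neutrophil markers averaged 1.40 to 1.51 on the knockout arrays, against 1.49 to 1.60 on the wild type arrays, with 0 of 10 past the threshold in limma (0 at an unadjusted p under 0.05), and 9 of them lay below the median level of all genes. Of the mast cell, epicardial, adipocyte and lymphocyte lists, 0 of 8, 2 of 7, 1 of 6 and 0 of 7 genes were lower, and Cd4 alone was higher. The epicardial count was 0 without wild type array 3 or any 1 knockout array and with centring, and 1 without wild type array 1. The adipocyte count was 0 under the same exclusions and with centring, and 2 without wild type array 1. No marker was listed at 0 on this log2 scale.

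**Figure D4:**
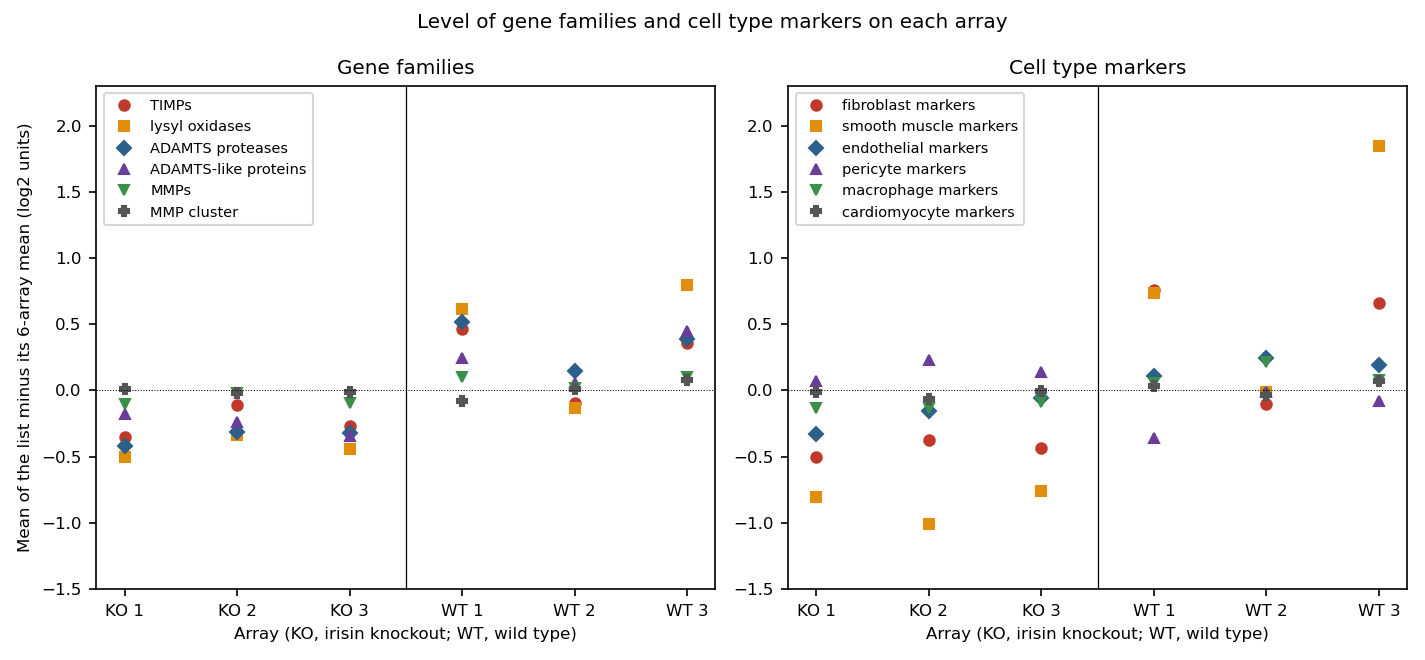
Mean log2 level of gene families (left) and cell type marker lists (right) on each array, after subtracting the mean of the 6 arrays, with knockout (KO) arrays left of wild type (WT) arrays. TIMPs, lysyl oxidases and fibroblast markers are low on the 3 knockout arrays and lower on WT 2 than on WT 1 and WT 3, whereas the MMP cluster and cardiomyocyte markers stay near 0 on all 6 arrays.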

How the data were processed

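Per the labels' protocols, TRIzol RNA was labelled with the WT Plus kit for Affymetrix arrays. The authors deposited log2 values, which the submitters' processing notes credit to RMA (affy 1.61.0, R 3.6.0). Neither the steps run within RMA nor the probe set definition or genome build is given in the sources used here. Groups came from the sample titles.

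Each of the 23185 rows with 1 symbol in the platform annotation, of 25206 in all, was tested with limma 3.58.1 in R 4.3.3 (lmFit and eBayes, genotype only, two-sided). The Benjamini-Hochberg adjustment ran over all of them, with a threshold of 0.05 and no filter on dim genes. Differences are knockout minus wild type. With 3 arrays per genotype, precision is low. The members and lists were chosen with earlier results of these data known. Named with all arrays were genes past the threshold, the TIMPs, the lysyl oxidases, Mmp2, Mmp9 and Mmp14, and in each functional class up to 2 others with the lowest p. In a list, up to 4 genes past the threshold with the lowest p were named, and other named list genes and Adamts5 were chosen after their values were seen. Promoter windows came from RefSeq tables of GRCm38.p6 and were matched to 35 of the 54 genes by gene ID. Python 3.11.15 and matplotlib 3.10.9 made the figures. The code was tested on simulated data.

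The tests were repeated with quantile-normalized or median-centred arrays, without dim genes, over all rows, with trended or robust eBayes, with array weights, with replicate number as a block, without single arrays, and at other thresholds. In their deviations from the group means, arrays with the same number correlated at 0.090, 0.048 and 0.070. Knockout and wild type arrays with different numbers correlated at -0.119 to 0.055, so the same-number values were the highest for each knockout array. None was over 0.1, and the numbers were not taken to pair the arrays in the main fit.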

Additional observations from a re-analysis of the deposited data

How the results depend on the processing

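Adamts9, Adamtsl2, Adamts10 and Adamts12 were lower in knockout hearts in all 16 refits and at a threshold of 0.01. The number of the 54 genes lower, 11 in the report, was 6 to 17 when single arrays were left out, 5 without both arrays numbered 1, 6 at a threshold of 0.01 and 15 at 0.1. The number higher, 0 in the report, was 1 (Mmp13) with quantile normalization, with centring and at a threshold of 0.1. The median difference of the group was -0.73 without the dimmest 50% of genes, where 29 of the 54 were tested. Over all genes, leaving out single arrays gave 1403 to 2570 higher and 701 to 1593 lower, against 2416 and 1432 in the report. There were 938 lower without both arrays numbered 1, 1256 higher and 528 lower at a threshold of 0.01, and 2212 lower at 0.1. The fits with fewer arrays rest on fewer samples by construction. Quantile normalization gave 1947 higher and 1501 lower, and centring gave 3162 and 977, because centring shifted the all-gene median by 0.11, to 0.07. The median of the group minus that of all genes was -0.17 in the report, -0.15 with quantile normalization and -0.17 with centring. Fndc5 had a difference between -2.75 and -1.63 when single arrays were left out, passing only without knockout array 1; with robust eBayes -2.01 had an adjusted p of 0.0635, and at 0.01 its 0.0359 did not pass. Among the 35 genes named with all arrays, differences that did not pass changed sign for Mmp21 (0.00391 with quantile normalization, 0.0157 with centring), for Mmp3 (-0.304 to 0.000999 over single arrays left out, above 0 without wild type array 3) and for Mmp9 (-0.138 to 0.159, below 0 without wild type array 3). Counted over whole families, negative differences went to 10 of 22 MMPs, from 15, and to 16 of 18 ADAMTS proteases, from 18, with quantile normalization and with centring. The cause of these changes was not tested.

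With the replicate number as a block, 2247 genes were higher and 1330 lower, and 12 of the 54 genes were lower, Adamts7 and Adamts14 gained and Loxl2 lost (adjusted p = 0.0532). The labels give no link between arrays of the same number beyond that number.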
